A study of Mus musculus with 15 samples.

Results

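The RNase A family genes measured here were Rnase2a, Ear1, Ear2 and Ear10, which are eosinophil-type ribonucleases, the angiogenins Ang and Ang2, and Rnase4 and Rnase6. They are 8 of the 55335 genes in the table, found by their symbol, and the mouse Ang2 row is the angiogenin-type ribonuclease and not angiopoietin 2. The family was selected on measured values, because several of its genes had differed between TAMs (tumor-associated macrophages) of control tumors and TAMs of miRNA tumors. Differences of members from control are therefore given as a description with no p-value, and the calls that limma made for them in the fit over all genes are counted beside the share of all genes called and support nothing. The other gene lists were also chosen with earlier results of these data known. Adjusted p-values of their genes against control are therefore part of the description and no independent support. The comparison of miR-451a with miR-144 did not choose the members.

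TAMs were sorted by FACS with antibodies against CD11b and F4/80 from orthotopic liver tumors of C57BL/6 mice, and their RNA was sequenced. The tumors grew from Hepa1-6 cells, a mouse hepatoma line, which carried a lentiviral firefly luciferase in the orthotopic model, and mice were killed 3 weeks after injection into the liver. In the miR-144 group the hepatoma cells overexpressed miR-144 from a lentivirus, in the miR-451a group they overexpressed miR-451a, and in the control group neither miRNA was overexpressed. The paper names a control lentivirus for the control cells of this orthotopic model. Each group held 5 samples in the table, which is more than the study's own account of this experiment gives, and the difference could not be settled from the labels. The overexpression was in the hepatoma cells, not in the macrophages. Age and sex of the mice are not given in the labels. No label says that the samples of a group came from separate mice, so that the spread between them may be technical, and no label names a batch.

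RNase A family proteins are small secreted enzymes that cut single-stranded RNA, found only in vertebrates. Several of them are stored in granules or released by leukocytes, where they act in host defense, and the eosinophil-associated ribonucleases of the mouse have multiplied into a large gene cluster. Angiogenins also promote vessel growth and cut tRNA in stressed cells. The cytosolic inhibitor Rnh1 binds members of the family tightly and blocks their activity.

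All 8 genes lie on chromosome 14 of the mouse genome (GRCm38, GENCODE M21 coordinates). Ang (chr14:51091150-51102009), Rnase4 (chr14:51091077-51106151) and Rnase6 (chr14:51123908-51132187) are on the plus strand, while Ang2 (chr14:51195324-51199148) and Rnase2a (chr14:51255262-51256112) follow on the minus strand. A separate group holds Ear1 (chr14:43818765-43875517) and Ear10 (chr14:43922720-43923559) on the minus strand and Ear2 (chr14:44102654-44103534) on the plus strand. RefSeq promoter windows, 250 bases before to 50 bases after the start in GRCm38.p6, were found for 7 of the 8 members. Ang2 had no entry.

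The windows of the 4 eosinophil-type genes are shown because these genes have related promoters and very different levels in control TAMs. Capitals mark the 3 runs of at least 15 bases that occur in all 4 windows, read 5′ to 3′ on the gene's own strand. The windows lie at chr14:51256063-51256362 (minus, Rnase2a), chr14:43819590-43819889 (minus, Ear1), chr14:44102404-44102703 (plus, Ear2) and chr14:43923547-43923846 (minus, Ear10).
Rnase2a: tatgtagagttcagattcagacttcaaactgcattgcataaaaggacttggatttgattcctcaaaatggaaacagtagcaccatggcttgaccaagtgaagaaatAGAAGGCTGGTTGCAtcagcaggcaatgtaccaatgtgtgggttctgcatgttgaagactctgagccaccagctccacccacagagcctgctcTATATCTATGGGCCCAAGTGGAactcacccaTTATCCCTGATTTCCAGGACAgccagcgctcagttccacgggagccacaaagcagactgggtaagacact
Ear1: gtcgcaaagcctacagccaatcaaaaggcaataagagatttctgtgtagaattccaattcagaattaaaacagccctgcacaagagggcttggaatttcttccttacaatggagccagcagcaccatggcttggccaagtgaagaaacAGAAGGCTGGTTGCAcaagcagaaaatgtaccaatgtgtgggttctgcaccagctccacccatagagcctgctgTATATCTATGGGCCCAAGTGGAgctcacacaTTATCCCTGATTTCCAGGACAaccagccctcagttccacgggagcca
Ear2: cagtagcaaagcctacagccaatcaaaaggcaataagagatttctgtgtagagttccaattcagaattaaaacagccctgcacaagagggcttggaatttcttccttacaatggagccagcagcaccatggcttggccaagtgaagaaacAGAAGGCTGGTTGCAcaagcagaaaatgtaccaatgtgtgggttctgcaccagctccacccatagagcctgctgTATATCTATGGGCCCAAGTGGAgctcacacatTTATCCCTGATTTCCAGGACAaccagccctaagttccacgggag
Ear10: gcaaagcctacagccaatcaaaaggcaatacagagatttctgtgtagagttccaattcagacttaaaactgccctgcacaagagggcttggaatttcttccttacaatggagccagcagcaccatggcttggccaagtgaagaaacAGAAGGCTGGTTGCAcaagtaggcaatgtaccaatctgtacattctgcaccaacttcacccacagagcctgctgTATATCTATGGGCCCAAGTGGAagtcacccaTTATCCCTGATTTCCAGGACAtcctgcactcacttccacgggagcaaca

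The marked runs made up 58 of the 300 bases in each window. The longest of them, TATATCTATGGGCCCAAGTGGA, has 22 bases and occurs in 4 of 32544 RefSeq promoter windows (0.0123%), which are those of Rnase2a, Ear1, Ear2 and Ear10. Over aligned bases, the windows of Ear1 and Ear2 were 99.0% identical (294 of 297), and Ear10 was 92.9% identical to Ear1 and 93.2% to Ear2. The Rnase2a window was 87.6%, 87.5% and 86.9% identical to those of Ear1, Ear2 and Ear10 over aligned bases, but gaps were many, and the identical bases made up 75.3%, 74.3% and 75.3% of the window. For Ear1 with Ear2 they made up 98.0% of it. Windows of the other members were no more than 66.4% identical to these. A sequence match describes the letters of a window and not a binding site.

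**Figure D1:**
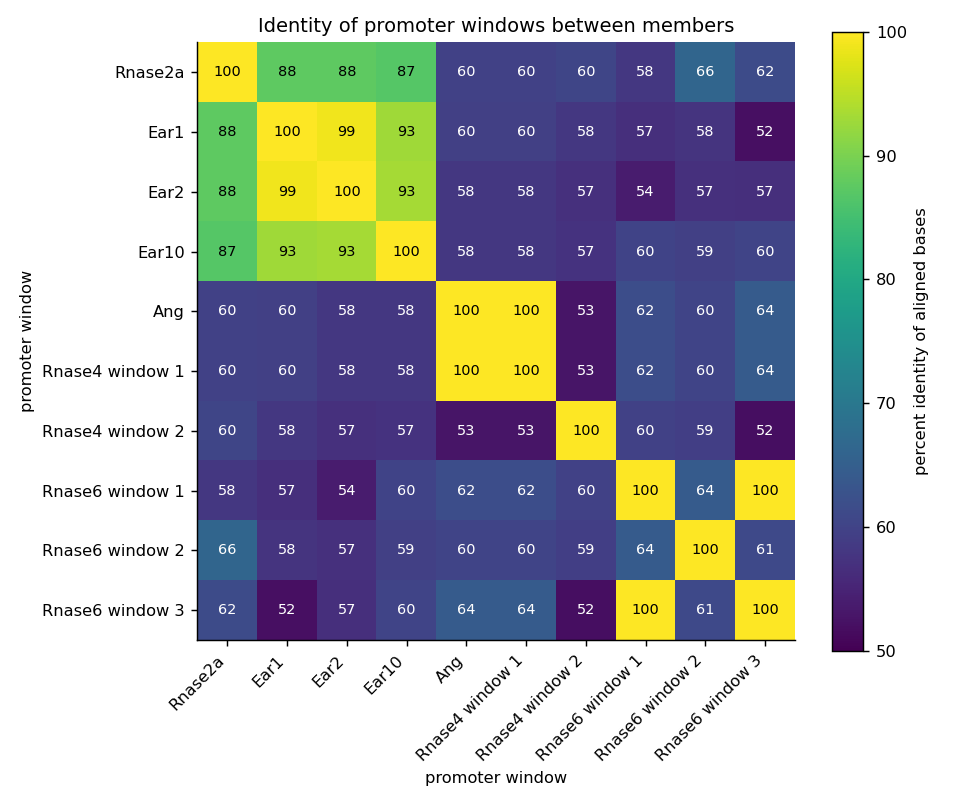
Percent identity of aligned bases between the RefSeq promoter windows of 7 members, one row and one column per window, with gaps left out. Rnase2a, Ear1, Ear2 and Ear10 form a block from 86.9% to 99.0%, and the Ang window is the same as the first Rnase4 window.

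Ang and Rnase4 shared 1 promoter window, printed here since both genes start from it (chr14:51090827-51091126, plus strand). Capitals mark the single match to AGGAAG, the core letters bound by ETS factors, on either strand.
Ang and Rnase4: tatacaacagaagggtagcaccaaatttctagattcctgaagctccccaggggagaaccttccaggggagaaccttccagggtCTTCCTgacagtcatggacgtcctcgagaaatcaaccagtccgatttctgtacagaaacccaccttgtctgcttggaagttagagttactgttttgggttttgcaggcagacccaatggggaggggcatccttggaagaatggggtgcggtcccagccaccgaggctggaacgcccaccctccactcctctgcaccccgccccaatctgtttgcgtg

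Searched on both strands, AGGAAG was also found in the windows of Ear1, Ear2 and Ear10, in both windows of Rnase4 and in 2 of the 3 windows of Rnase6, and 35.1% of all RefSeq promoter windows hold it. No member window held TTCNNNNGAA (6.98% of windows), TTCNNNGAA (8.33%), TGANTCA (7.79%) or TATAAA (13.6%). TTCNNNGAA and TTCNNNNGAA are the letters of STAT and STAT6 sites, TGANTCA of AP-1 sites and TATAAA of the TATA box. Their absence says only that these letters are not in these windows.

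The deposited values are FPKM, fragment numbers scaled by gene length and by library size, so that levels of different genes are on 1 scale per length, while comparisons between samples also depend on how the libraries are scaled. The spacing of low values gave an implied depth of about 15500000 to 30300000 fragments per sample. The floor given for a gene is the FPKM that 3 fragments would make in the sample of lowest depth. The sort markers were measured in every sample. Adgre1, which encodes F4/80, had 131 to 141 FPKM in control TAMs and 334 to 394 FPKM in the 10 miRNA samples. Itgam, which encodes CD11b, stands in 2 rows that varied in opposite directions between samples. Control sample 2 had 9.99 FPKM in 1 row, the lowest value, and 68.5 FPKM in the other. Neither row alone gives the level of this gene. Albumin and 6 other hepatocyte markers were listed at 0 in all 15 samples, and the eighth, Trf, had 109 to 167 FPKM. Of the 11419 genes whose mean reached 1 FPKM, 7668 differed between miR-144 and control and 7804 between miR-451a and control (limma, adjusted p under 0.05). In the same fit 70.1% and 70.3% of these genes were higher in the miRNA group, against 76.5% and 77.3% after rescaling to TPM and 52.3% and 52.3% after quantile normalization. After each sample was centred on its median, 3512 genes were higher and 3511 lower with miR-144, and 3577 were higher and 3636 lower with miR-451a. Without centring the median gene was higher by 0.13 and 0.14 on the log2(FPKM + 1) scale, and small differences below are to be read against that shift.

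Rnase2a was the leading family transcript of control TAMs and was at or near 0 in both miRNA groups. It encodes a relative of the human eosinophil-derived neurotoxin, an RNase of eosinophil granules. The 5 control samples had 319, 337, 352, 369 and 288 FPKM. Of the miR-144 samples, 4 were listed at 0 and 1 had 0.0474 FPKM, while the miR-451a samples were listed at 0, 0.0656, 0.0681, 0 and 0.0622 FPKM. Every control sample was far above all 10 miRNA samples, whose nonzero values correspond to about 1 fragment each and lie under the floor of 0.280 FPKM. The mean was 333 ± 31.3 FPKM (SD, n = 5) in control TAMs. Against the pooled fragments of the miRNA groups, this was 35130 times the miR-144 mean (95% counting interval 5596 to 1232000, about 1 fragment, without which all were at 0) and 8495 times the miR-451a mean (2875 to 40740, about 3 fragments). These intervals are exact Poisson intervals on rounded fragment numbers that were only estimated from FPKM and depth. They are therefore approximate, and they cover counting error only. On the log2(FPKM + 1) scale, which understates changes of genes near 0, Rnase2a differed from control by -8.36 ± 0.05 (SE) in the miR-144 group and by -8.32 ± 0.05 in the miR-451a group. Of the 11419 genes, 2 had a more negative difference in each comparison.

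Ear2, another eosinophil-associated ribonuclease, was the second family gene with a high level in control TAMs alone. Control values were 35.5, 35.0, 36.2, 37.3 and 33.8 FPKM. The miR-144 samples had 0.102, 0.147, 0.247, 0.310 and 0.342 FPKM, and the miR-451a samples had 0.179, 0.520, 0.224, 0.412 and 0.358 FPKM. The control samples lay close together (SD 1.31 FPKM) and were separate from the miRNA samples, which themselves overlapped and reached both sides of the floor of 0.269 FPKM. The control mean was 155 times that of miR-144 (95% counting interval 96.9 to 258) and 105 times that of miR-451a (73.7 to 160). Differences from control on the log2(FPKM + 1) scale were -4.90 ± 0.07 and -4.78 ± 0.07.

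Ear10 and Ear1 were low or listed at 0. Ear10 had 0.0935, 0.387, 0.0791, 0.374 and 0.120 FPKM in control samples and stood at 0 in each of the 10 miRNA samples. Control samples 2 and 4 were above its floor of 0.285 FPKM and the other 3 below it, and no fold change is given against groups listed at 0. Ear1 was listed at 0 in all 15 samples, although its promoter window is the one printed above that differs least from Ear2. Of the 50-base stretches of the longest transcript, 57.4% of Ear1, 41.5% of Ear2 and 39.9% of Ear10 also occur in other genes, mostly of the same cluster (Ear-ps9, Ear-ps2, Ear1, Ear2 and Ear10). How fragments from such stretches were divided is not given in the sources used here, so that the values of these 3 genes are uncertain relative to each other. No 50-base stretch of Rnase2a occurs in another gene.

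Eosinophil granule genes did not accompany these ribonucleases. Prg2 and Prg3, which encode granule major basic proteins, were listed at 0 in all 15 samples, and Epx (eosinophil peroxidase) and Il5ra (interleukin-5 receptor) were above 0 in 1 sample each, a miR-451a sample, at no more than 0.0146 FPKM. The summed level of the 6 eosinophil markers was 2.43 to 2.98 FPKM in control TAMs, 0.839 to 0.991 with miR-144 and 0.615 to 1.08 with miR-451a. Siglecf was the 1 of the 6 that was lower in the miRNA groups, at 1.94 to 2.56 FPKM against 0.159 to 0.504 (limma in the fit without a filter on low values, where 9.65% and 9.69% of genes were lower, adjusted p = 8.82e-09 and 8.51e-09). Ccr3, the eotaxin receptor, was measured in all 15 samples and was not called, with differences from control of 0.11 and 0.03, so that the lower sum was that of Siglecf.

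Markers that alveolar macrophages carry moved with Rnase2a and Ear2. Of 7 such genes, Itgax, Fabp4 and Pparg were lower in both miRNA groups in the fit over genes with a mean of 1 FPKM or more, where 20.1% and 20.3% of genes were lower. Car4 and Siglecf were lower and Marco was higher in the fit over all genes above 0, where 9.65% and 9.69% were lower and 23.1% and 24.5% higher, and Krt79 was listed at 0 in all 15 samples. Their summed level was 234 to 272 FPKM in control TAMs, 33.1 to 37.2 with miR-144 and 32.5 to 33.9 with miR-451a. Itgax, which encodes CD11c, had 84.3 to 106 FPKM in control TAMs and 2.88 to 4.56 in miRNA samples. Fabp4, a fatty acid binding protein, had 111 to 130 against 18.9 to 23.1 FPKM, and Pparg, the lipid-sensing nuclear receptor, had 33.5 to 40.5 against 8.90 to 10.5 FPKM. Car4 was listed at 0 in the 10 miRNA samples (control 0.975 to 1.59 FPKM), and Marco was the higher gene (up to 0.0321 against 0.103 to 0.433 FPKM). Siglecf stands in both lists. The part of a different macrophage population in the levels of Rnase2a and Ear2 was not tested. In sorted bulk RNA, fewer cells that express a gene and less RNA per cell cannot be told apart.

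**Figure D2:**
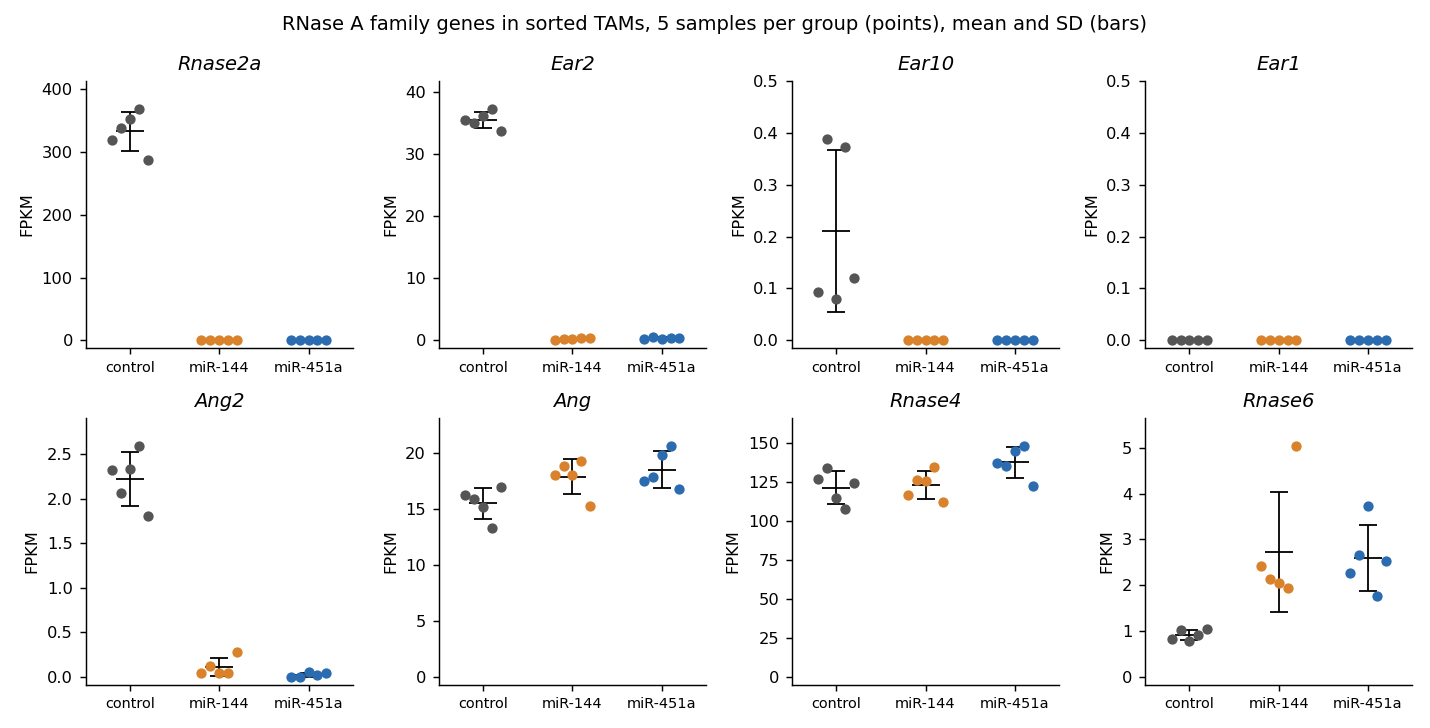
FPKM of the 8 members in control, miR-144 and miR-451a TAMs, one point per sample, with the mean and SD of 5 samples as bars and an axis of its own for each gene. Rnase2a, Ear2, Ear10 and Ang2 were higher in all control samples than in any miRNA sample, Ang and Rnase4 overlapped between groups, and Rnase6 was lower in all control samples.

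Ang2 had the same direction as Rnase2a at a much lower level. It encodes another mouse angiogenin. Control samples had 2.33, 2.06, 2.33, 2.60 and 1.80 FPKM. The miR-144 samples had 0.0452, 0.125, 0.0493, 0.0497 and 0.279 FPKM, and the miR-451a samples were at 0, 0, 0.0523, 0.0259 and 0.0401 FPKM. No miRNA sample came near the lowest control sample, and 9 of the 10 were under the floor of 0.216 FPKM. The exception was miR-144 replicate 5. The control mean of 2.22 ± 0.302 FPKM (SD, n = 5) was 20.3 times that of miR-144 (95% counting interval 11.1 to 42.7, and 33.1 times without replicate 5) and 93.9 times that of miR-451a (27.2 to 386, about 3 fragments). On the log2(FPKM + 1) scale Ang2 differed by -1.54 ± 0.07 and -1.65 ± 0.07. The size depends on the pseudocount, since the differences were -3.57 and -4.24 with 0.1 in place of 1, and on the scale, since they were -2.62 and -2.94 after rescaling to TPM.

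Ang, the angiogenin that is known as RNase 5, varied little between groups. Control samples had 16.2, 15.9, 15.2, 13.3 and 17.0 FPKM. The miR-144 samples had 18.0, 18.9, 18.0, 19.3 and 15.3 FPKM, and the miR-451a samples had 17.5, 17.9, 19.8, 20.7 and 16.8 FPKM. Control sample 4 was the lowest and replicate 5 was the lowest of each miRNA group, and the control range overlapped with both. The means were 15.5 ± 1.39, 17.9 ± 1.55 and 18.5 ± 1.65 FPKM (SD, n = 5 each). Differences from control were 0.20 ± 0.07 and 0.24 ± 0.07 on the log2(FPKM + 1) scale, of which 0.06 and 0.10 were left after median centring, and both then no longer passed the threshold.

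Rnase4, a ribonuclease with a preference for uridine, was the second most abundant family transcript in control TAMs and the most abundant in the miRNA groups. Control samples had 127, 134, 115, 108 and 124 FPKM. The miR-144 samples had 117, 127, 126, 135 and 112 FPKM, and the miR-451a samples had 137, 136, 145, 148 and 123 FPKM. The control and miR-144 ranges were nearly the same, and 4 of the 5 miR-451a samples were above all control samples. Means were 122 ± 10.4, 123 ± 8.76 and 138 ± 9.96 FPKM (SD, n = 5 each). The difference from control was 0.02 ± 0.07 with miR-144, which became -0.11 after median centring, and 0.18 ± 0.07 with miR-451a, which became 0.04 and no longer passed the threshold. After quantile normalization they were 0.11 and 0.30.

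Ang and Rnase4 overlap over 10860 bp on the same strand and share 219 exon bases, 18.2% of those of Ang and 13.4% of those of Rnase4. A fragment that lies within these bases alone could come from either gene. How such fragments were divided is not given in the sources used here. Their levels moved together among samples of a group. After the group means were subtracted, Pearson r of log2(FPKM + 1) over 15 samples was 0.86, and Rnase4 ranked 5 of 11418 genes in likeness to Ang. Each point is 1 library, from which both values come, and the shared exon bases may enter both. The ratio of Rnase4 to Ang was 7.33 to 8.44 in control samples, 6.49 to 7.33 with miR-144 and 7.18 to 7.84 with miR-451a.

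**Figure D3:**
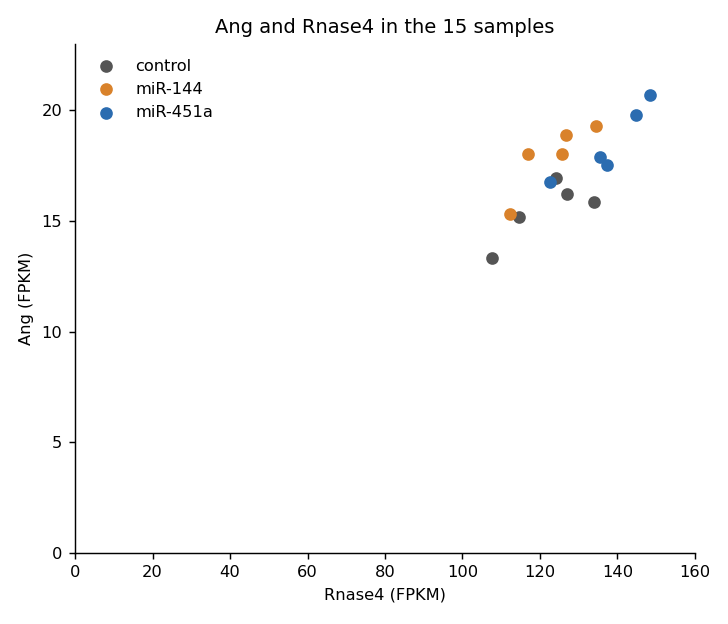
FPKM of Ang against FPKM of Rnase4, one point per sample, in control, miR-144 and miR-451a TAMs. Rnase4 spanned 108 to 148 FPKM and Ang 13.3 to 20.7 FPKM, the 5 miR-144 samples have the same order in both genes, and the groups overlapped.

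Rnase6, an antimicrobial ribonuclease of monocytes and macrophages, was the member that was higher in every miRNA sample. Control samples had 0.840, 1.02, 0.785, 0.925 and 1.04 FPKM. The miR-144 samples had 2.42, 2.15, 2.06, 1.95 and 5.05 FPKM, and the miR-451a samples had 2.28, 2.66, 3.73, 1.76 and 2.53 FPKM. All 10 miRNA samples were above the highest control sample, and miR-144 replicate 5 stood far above the other samples. Means were 0.921 ± 0.11, 2.72 ± 1.31 and 2.59 ± 0.723 FPKM (SD, n = 5 each), which is 2.96 and 2.81 times the control mean. Rnase6 was higher by 0.90 ± 0.18 and 0.88 ± 0.18 on the log2(FPKM + 1) scale, and by 0.71 ± 0.12 with miR-144 when replicate 5 was left out. With a pseudocount of 0.1 the differences were 1.38 and 1.36. About 304 fragments lay behind the 5 control values. No 50-base stretch of Rnase6 occurs in another gene.

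Counted by call, 2 members (Ang and Rnase6) were higher and 2 (Rnase2a and Ear2) were lower with miR-144 among the 5 that had a mean of at least 1 FPKM, where 47.1% of all genes were higher and 20.1% lower. With miR-451a, 3 were higher (Rnase4 in addition) and the same 2 were lower, against 48.1% and 20.3% of all genes. Ear10 and Ang2 were under that mean and were lower in both comparisons in the fit over all 29540 genes above 0, where 23.1% were higher and 9.65% lower with miR-144 and 24.5% and 9.69% with miR-451a. Ear1 could not be fitted. The median difference over the 5 members was 0.02 in the first comparison and 0.18 in the second, beside 0.13 and 0.14 over all genes. Both comparisons share the control samples, and the members were chosen on them, so nothing is read from these counts.

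**Figure D4:**
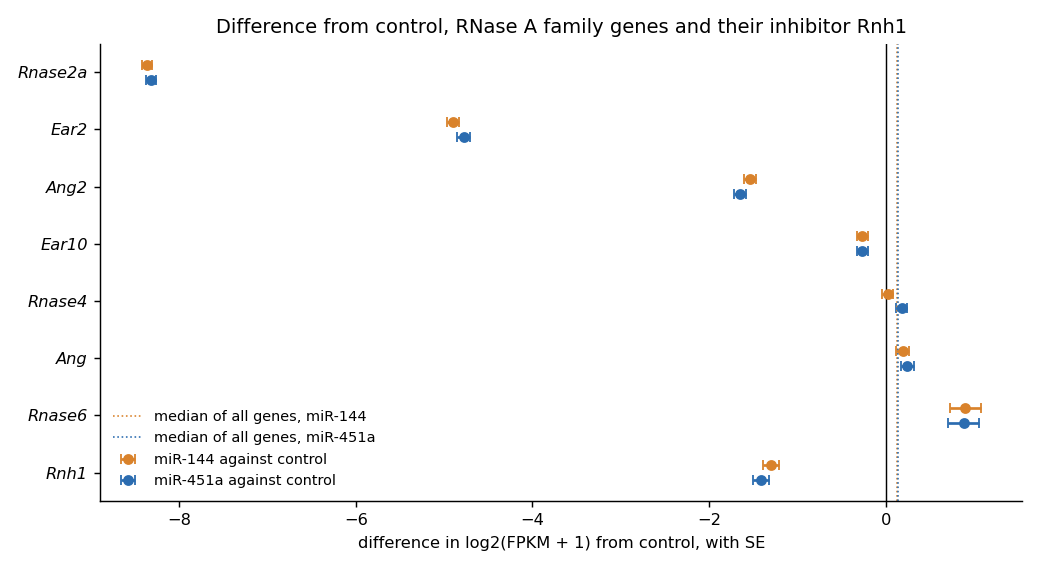
Difference from control in log2(FPKM + 1) with its SE, from the fit over all 15 samples, for 7 members and the inhibitor Rnh1. Points to the left of the solid line at 0 were lower in the miRNA group; the dotted lines mark the median of all genes (0.13 for miR-144 and 0.14 for miR-451a), and the points of Ang and Rnase4 lie beside them.

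The order of the members by mean FPKM in control TAMs was Rnase2a, Rnase4, Ear2, Ang, Ang2, Rnase6, Ear10 and Ear1, and the ranges of neighbours did not overlap. In both miRNA groups the order began with Rnase4, Ang and Rnase6, which did not overlap. Ear2 came next in both, and its range overlapped with that of Ang2 with miR-144, while with miR-451a the ranges of Rnase2a and Ang2 below it overlapped each other. Summed over the 8 members, control samples had 465 to 531 FPKM, miR-144 samples 133 to 156 and miR-451a samples 142 to 171. Rnase2a made up 65.3% ± 3.11 (SD, n = 5) of the sum in control TAMs, Rnase4 24.0% ± 2.70 and Ear2 7% ± 0.225. Rnase4 made up 85.4% ± 0.799 of the sum in miR-144 samples and 86.5% ± 0.552 in miR-451a samples, where Ang made up 12.4% ± 0.598 and 11.6% ± 0.357. The 6 members other than Rnase2a and Rnase4 summed to 53.8 to 55.0 FPKM in control samples, 20.4 to 21.6 in miR-144 samples and 19.7 to 23.8 in miR-451a samples.

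None of the 7 members fitted was called between miR-451a and miR-144 at an adjusted p under 0.05 (limma, 0.0% of 11419 genes and 0.0% of 29540 genes called, with 596 and 1459 genes at an unadjusted p under 0.05). Rnase4 had the smallest p of the members, and it was 0.16 higher with miR-451a on the log2(FPKM + 1) scale (95% interval 0.02 to 0.30, unadjusted p = 0.0304, limma adjusted p = 0.946). Ang differed by 0.05 (-0.11 to 0.20) and Rnase6 by -0.02 (-0.39 to 0.36), each with a limma adjusted p of 1. Rnase2a, Ear2, Ang2 and Ear10 had about 28 fragments or fewer in each miRNA group and entered the fit through the control samples, which also set much of its spread, so that the fit says nothing of them here. Their miR-144 and miR-451a values overlapped or were all listed at 0, and a difference was not detectable at this depth. Without miR-144 replicate 5 the difference of Rnase6 was 0.17 ± 0.12.

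The inhibitor Rnh1 was high in control TAMs and lower in both miRNA groups. Control samples had 266, 270, 256, 250 and 261 FPKM. The miR-144 samples had 107, 112, 92.2, 94.1 and 126 FPKM, and the miR-451a samples had 103, 106, 86.5, 83.2 and 112 FPKM. The groups did not overlap with control, and replicates 3 and 4 were the lowest of all 3 groups. The difference of Rnh1 from control was -1.29 ± 0.09 with miR-144 (limma adjusted p = 6.41e-09) and -1.41 ± 0.09 with miR-451a (limma adjusted p = 2.21e-09) on the log2(FPKM + 1) scale. Its list was chosen with earlier results of these data known, so that these p-values are a description. Rnh1 did not differ between miR-451a and miR-144 at the threshold (-0.12, 95% interval -0.31 to 0.08, limma adjusted p = 0.998). The summed FPKM of the 8 members was 1.78 to 2.12 times the Rnh1 value in control samples, and it was 1.06 to 1.66 times that value in miR-144 samples and 1.28 to 2.06 times in miR-451a samples.

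**Figure D5:**
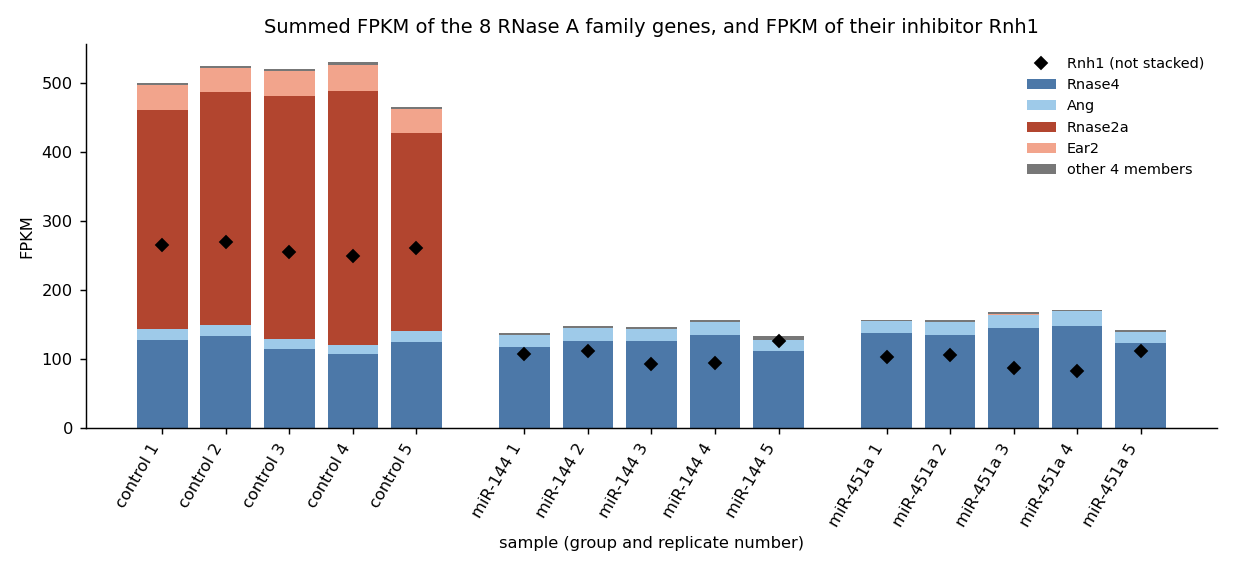
Stacked FPKM of the members in each sample, with Rnase4, Ang, Rnase2a and Ear2 shown apart and the other 4 members together, and FPKM of Rnh1 as diamonds. Rnase2a formed the main part of the control bars (465 to 531 FPKM in all) and was not visible in the miRNA bars (133 to 171 FPKM), where Rnase4 formed most of the sum.

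Replicates 3 and 4 of each group stood apart from the other 3 samples in several genes. They had the lowest Rnh1, Pld4 and Cd14 and the highest Trf, Mertk, Itgax and Cd5l of their group. Cd5l, a macrophage scavenger gene of Kupffer cells, was 38.4 to 48.9 FPKM in these samples of the miRNA groups, against 15.3 to 19.7 in the other 6 miRNA samples and 3.21 to 3.65 in control samples. With the samples numbered 3 and 4 dropped, which was chosen after seeing the data, Rnh1 differed from control by -1.20 ± 0.06 and -1.31 ± 0.06. In that fit Ang differed by 0.08 and 0.08 and Rnase4 by -0.11 and 0.04, none of which passed the threshold. The 6 Kupffer cell markers summed to 21.9 to 26.8 FPKM in control TAMs, 31.5 to 64.2 with miR-144 and 30.6 to 61.7 with miR-451a. Of these markers, Cd5l and Id3 were higher and Nr1h3 was lower in both miRNA groups. Among genes with a mean of 1 FPKM or more, 47.1% and 48.1% were higher there and 20.1% and 20.3% lower. Timd4 and Vsig4, under that mean, were higher in the fit over all genes above 0 (23.1% and 24.5% higher), and Clec4f, a defining marker, was listed at 0 in all 15 samples. Rnase4 and Ang were highest in replicate 4 of both miRNA groups. In control TAMs, replicates 4 and 3 instead had the lowest Rnase4 (108 and 115 FPKM) and the lowest Ang (13.3 and 15.2 FPKM). The 8 macrophage markers stand in 9 rows, of which 7 were higher, Cd68 was lower and 1 of the 2 Itgam rows was not called in both miRNA groups. Of all genes with a mean of 1 FPKM or more, 47.1% and 48.1% were higher and 20.1% and 20.3% lower. Neither Itgam row alone gives the level of that gene. The sum of the 9 rows was 8725 to 9565 FPKM in control samples, 14870 to 16800 in miR-144 samples and 14540 to 15830 in miR-451a samples. Neutrophil, mast cell and basophil, and peritoneal macrophage markers summed to no more than 1.26, 1.71 and 3.52 FPKM in any sample. The 4 mast cell and basophil markers summed to 0.156 to 0.464 FPKM in control samples, 0.511 to 1.71 in miR-144 samples and 0.783 to 1.25 in miR-451a samples. Of these, Mcpt8, a basophil protease, was higher in both miRNA groups in the fit over all genes above 0 (limma adjusted p = 0.00628 and 0.0197). The part of these cells in the levels of Rnh1, Ang and Rnase4 was not tested.

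Of 17 other RNase A family genes that were looked for, 12 were found in the table. None had more than 0.153 FPKM in a sample, and 8 were listed at 0 in all 15. Ear6 was lower in both miRNA groups (limma in the fit without a filter, adjusted p = 0.0207 and 0.0199), with 0.0447, 0.153, 0, 0.0889 and 0.0369 FPKM in control samples and 0 in the 10 miRNA samples, all under its floor of 0.204 FPKM. This call was lost without control replicate 4, with the samples numbered 3 and 4 dropped and in a fit of the 2 groups alone. Rnase2b was at no more than 0.0848 FPKM in any group, and Rnase1 (the pancreatic type) and Rnase10 were at 0 or near it.

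Ribonucleases of other families, with which Rnh1 was grouped, went in both directions. Of 29 such genes, either miRNA group had 17 higher and 6 lower than control, beside 47.1% and 20.1% of all genes with miR-144 and 48.1% and 20.3% with miR-451a. After median centring 9 were higher and 7 lower with miR-144 and 10 and 7 with miR-451a, so that small rises in this list depend on the scaling. Among the higher genes were Pld4, an endolysosomal nuclease, which had 78.1 to 96.7 FPKM in control samples and 225 to 271 in miRNA samples (1.45 ± 0.07 and 1.49 ± 0.07 on the log2(FPKM + 1) scale), and Isg20, an interferon-induced exonuclease (1.32 ± 0.14 and 1.23 ± 0.14). Pld3, the relative of Pld4, went the other way, at 341 to 380 FPKM in control samples and 123 to 150 in miRNA samples, a difference of -1.36 ± 0.05 and -1.46 ± 0.05. The RNase T2 genes Rnaset2a and Rnaset2b were higher by 0.61 ± 0.03 and 0.53 ± 0.03 with miR-144 and by 0.69 ± 0.03 and 0.60 ± 0.03 with miR-451a. Zc3h12a, the mRNA-degrading regnase, was lower (-0.34 ± 0.05 and -0.35 ± 0.05).

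Molecules to which secreted ribonucleases are known to bind changed in both directions. Tlr2, a receptor activated by human eosinophil-derived neurotoxin, was 7.08 to 8.67 FPKM in control TAMs and 57.6 to 64.5 in the miRNA samples, a difference of 2.83 ± 0.05 (limma adjusted p = 5.42e-16) and 2.84 ± 0.05 (limma adjusted p = 4.87e-16). Plxnb2, the plexin that serves as an angiogenin receptor, was 59.2 to 69.5 FPKM against 136 to 151, higher by 1.10 ± 0.04 and 1.13 ± 0.04. Sdc1, a heparan sulfate proteoglycan, was 71.2 to 89.3 FPKM against 10.4 to 14.6 a difference of -2.48 ± 0.07 and -2.60 ± 0.07. Sdc2 and Sdc4 were higher in both comparisons, and Sdc4 differed by no more than 0.16, close to the shift of all genes. Egfr was under 1 FPKM in all samples and did not pass the test in either comparison. None of these 6 genes differed between miR-451a and miR-144 at an adjusted p under 0.05 in limma.

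The genes most like a member over the 15 samples were found by Pearson r of log2(FPKM + 1) among 11419 genes. For Rnase2a these were Flt1, Chil3 and Retnla (r = 0.9998 each), and for Ear2 they were Chil3 (0.9992), Rnase2a (0.9988) and Gm8113 (0.9987). Chil3 and Retnla are known as genes of alternatively activated macrophages. All points come from the same 15 libraries, which fall into control and miRNA samples, so that these r values say only that the genes share that step. After group means were subtracted, Ang was closest to Pds5b, Tspan3 and Zcchc24 (0.91, 0.90 and 0.89) and Rnase4 to Pds5b, Eps8 and Stab1 (0.94, 0.92 and 0.88). That measure is not given for Rnase2a and Ear2, which were near 0 in 10 of the 15 samples, nor for Rnase6, where miR-144 replicate 5 stands far from the rest.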

How the data were processed

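TAMs sorted from mouse tumors were compared in 15 samples (5 per group). Per the labels and the methods, RNA was extracted with Trizol and sequenced on the Illumina platform. The authors deposited FPKM per gene and sample, and the submitters' processing notes list FastQC 0.11.2, STAR and StringTie. Genome build and annotation are not given in the sources used here. FPKM times merged exon length in GENCODE M21 (GRCm38) came out with 6 decimals for 98.7% of 12158 genes with several transcripts (tolerance 0.02), so FPKM refer to that length. Exact fragment counts could not be read back from the FPKM, since only 39.8% to 52.6% of low values per sample were multiples of what 1 fragment is worth. Count tests were left out, and the fragment numbers behind the counting intervals are rough estimates.

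Group, number and symbol came from the labels and the table, and all 15 sample columns were used. For testing, log2(FPKM + 1) of the 11419 genes whose mean reached 1 FPKM was fitted in limma 3.58.1 (R 4.3.3). The 3 groups shared 1 fit with a trended prior variance, and p-values were adjusted by Benjamini-Hochberg over these genes. Genes below that mean were read from the fit over 29540 genes above 0. The script was tested on simulated data. Promoter windows (RefSeq, GRCm38.p6) were aligned end to end with free end gaps in Biopython 1.88, and counting intervals are 95% exact Poisson intervals (scipy 1.17.1). Alternatives were pseudocount, filter, scaling, replicate block, trend, samples fitted and each sample left out. Members and gene lists were chosen with earlier results of these data known. Genes named beyond the members and the lists were the 3 most like each member. Replicate pairs of a group differed by far more than sampling noise (mean chi-square per gene at least 10.6).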

Additional observations from a re-analysis of the deposited data

Results flagged for a closer look

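For the 8 members and 28 other genes named with values, Dixon's test was run in the 95 sets of 5 samples whose values were not all equal, and 7 samples stood apart from the rest of their group. Chance flags about 1 in 20, or 4.75 of 95.

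Rnase6 in miR-144 replicate 5 was 5.05 FPKM, and the next sample was 2.42. That sample also had the highest Ang2 value of the 10 miRNA samples (0.279 FPKM). Sdc1 in control replicate 3 was 89.3 FPKM, and the next sample was 76.0.

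The other 5 lay near 0. Rnase2a in miR-144 replicate 1 was 0.0474 FPKM, about 1 fragment, where the other 4 samples were listed at 0. Rnase1 in miR-144 replicate 1 was 0.0116 FPKM, and Epx and Il5ra in miR-451a replicate 2 were 0.0146 and 0.0131 FPKM, with the other 4 samples at 0 in each set. Rnase2b in miR-451a replicate 1 was 0.0848 FPKM, and the next sample was 0.0208.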

How the results depend on the processing

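The members were chosen on their differences from control, so calls that held there are no sign of stability, and only losses are given. Of the recomputed differences of 7 members and Rnh1, 22 lost a call, 20 of them of Ang and Rnase4. Ang with miR-144 no longer passed without a filter on low values (0.20), with median centring (0.06), quantile normalization (0.12) or a replicate block (0.20), or without control replicate 3 or 4 or miR-144 replicate 2, 3 or 4 (0.14 to 0.19). With miR-451a it was lost with median centring (0.10) and quantile normalization (0.17). Rnase4 with miR-451a was lost without a filter (0.18) and with median centring (0.04), and when miR-451a replicate 3 or 4 or control replicate 3 or 4 was dropped (0.14 to 0.16). With miR-144 it passed nowhere, and its sign turned with median centring (-0.11) and with the samples numbered 3 and 4 dropped (-0.11). The sign also turned with 1 sample left out, where the lowest difference was -0.02. The cause was not tested. With the samples numbered 3 and 4 of each group dropped, an alternative chosen after seeing the data, Ang (0.08 and 0.08), Rnase4 with miR-451a (0.04) and Ear10 (-0.26 and -0.26) no longer passed, so that 4 members were called in each comparison with control, against 6 and 7. In that fit no other RNase A family gene and 1 gene between miR-451a and miR-144 were called. The members called were 4 to 6 with miR-144 and 4 to 7 with miR-451a over all alternatives.

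Among the other RNase A family genes 1 (Ear6) was called in each comparison, 4 with median centring, which moves genes at 0 away from 0, and 0 in a fit of the 2 groups alone. With 1 sample left out it was 0 to 1, and 0 without control replicate 4. Over all genes, a minimum of 5 FPKM left 4776 and 4821 calls, since fewer genes were tested. Between miR-451a and miR-144, 0 to 2 genes were called with 1 sample left out (2 without miR-144 replicate 4, miR-144 replicate 5 or miR-451a replicate 3, and 1 without miR-451a replicate 5), none of them a member.

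The numbers were not taken to pair the samples, since no source says that they do and not every pair correlated at over 0.1. Samples 3 and 4 nevertheless stood apart alike in several genes in all groups. Same-numbered samples correlated at -0.13 to 0.11 for control and miR-144 (1 of 5 pairs over 0.1), 0.07 to 0.26 for control and miR-451a (3 of 5) and -0.15 to 0.24 for miR-144 and miR-451a (4 of 5), with 0, 3 and 1 samples closest to their own number. Rnase4 was higher with miR-451a in 5 of 5 same-numbered pairs, and its limma adjusted p with the block was 0.757. With the replicate block 7711, 7859 and 0 genes were called, 5, 7 and 0 members, and only the call of Ang with miR-144 changed among the members. FPKM near or under the floor of 3 fragments limits what can be said of Ear1, Ear10 and the miRNA samples of Rnase2a, Ear2 and Ang2.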
